A study of Nothobranchius furzeri with 25 samples.

Results

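The genes described here are 150 transcript contigs of the turquoise killifish Nothobranchius furzeri whose mean level in whole brain was higher at 20 and at 27 weeks than at 5, 12 and 39 weeks. They were chosen on the measured values. Counts were divided by the library total and multiplied by 1000000 (CPM), and log2(CPM + 0.5) was averaged at each age. Of 18228 contigs, 11541 had an identifier number above 2400, a zebrafish identifier and a mean of at least 5 CPM over the 25 libraries. These were ranked by the lower of the means at 20 and 27 weeks minus the highest of the means at 5, 12 and 39 weeks, here called the peak margin, and the 150 largest were taken.

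RNA was sequenced from 25 whole brains of male fish of the wild-derived strain MZM 04/10, with 1 library per brain and 5 brains at each of 5, 12, 20, 27 and 39 weeks. The labels name no transgene and no treatment, and age is the only difference they give between the groups. The first age marks sexual maturity, 20 weeks the adult fish with slowed growth, 27 weeks the median lifespan and 39 weeks old age in this strain. Library totals lay between 15690560 and 26378519 counts, and 17393 to 17695 contigs were detected in a library. In 6 libraries the title carries the mark w0w1, whose meaning is not given in the sources used here, with 2 of them at 12 weeks and 1 at each other age. In a whole brain, fewer cells of a type and less RNA per cell cannot be told apart.

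N. furzeri has one of the shortest captive lifespans of any vertebrate, and its brain ages with loss of adult neurogenesis and with gliosis, the thickening of the glial network. A transcript that is high in mid-life and lower both before and after follows neither a steady decline nor a steady rise with age. Transcripts under the control of the circadian clock, of hormones or of stress can change within hours, so that their level also depends on the state of the animal at sampling. According to the study, the fish had all been fasted and were sampled at the same time.

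The members carry zebrafish identifiers but no gene symbols. Symbols could be paired with 1994 contigs of identifier number 2316 or lower, all from the early part of the alphabet, and 0 of the 150 members is among them. Members are therefore called by their rank, and 4 are given with their identifiers. Of the 26 gene lists drawn up by symbol (clock, stress, neuronal, glial and other genes), 18 had at least 1 contig with a symbol and none had a member. The absence of members was fixed in advance, since the rule takes identifier numbers above 2400 only. Whether members belong to these lists therefore could not be told. Of the tissue markers, the glial genes ALDH1L1 and AQP4 summed to between 72.9 and 257 CPM in every brain, and the 3 muscle genes with a symbol to between 30.7 and 136 CPM. No neuronal marker of the list had a symbol, so that the brain label was checked on glia only.

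The peak margins were small. They ran to 0.70 on the log2 scale, a 1.63-fold difference, with a median of 0.18 (1.13-fold), and 2 members exceeded 1.5-fold. The last 3 members had margins of 0.1229, 0.1223 and 0.1223, and the first 3 contigs left out had 0.1222, 0.1221 and 0.1217, so that no gap in the values marks the end of the list. The margin exceeded the standard deviation (SD) between brains of the same age in 25 of the 150 members. In none of the members did all 10 brains of 20 and 27 weeks lie above all 15 others, and this was so for 0% of the 11541 contigs. At most 8 of the 10 brains did so, the median was 3 brains, and in 20 members no brain did. A margin above 0 was found in 1002 of the 11541 contigs. The opposite shape, lower at both 20 and 27 weeks than at each other age, was found in 999 contigs, of which 88 reached the size of the smallest member margin.

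**Figure D1:**
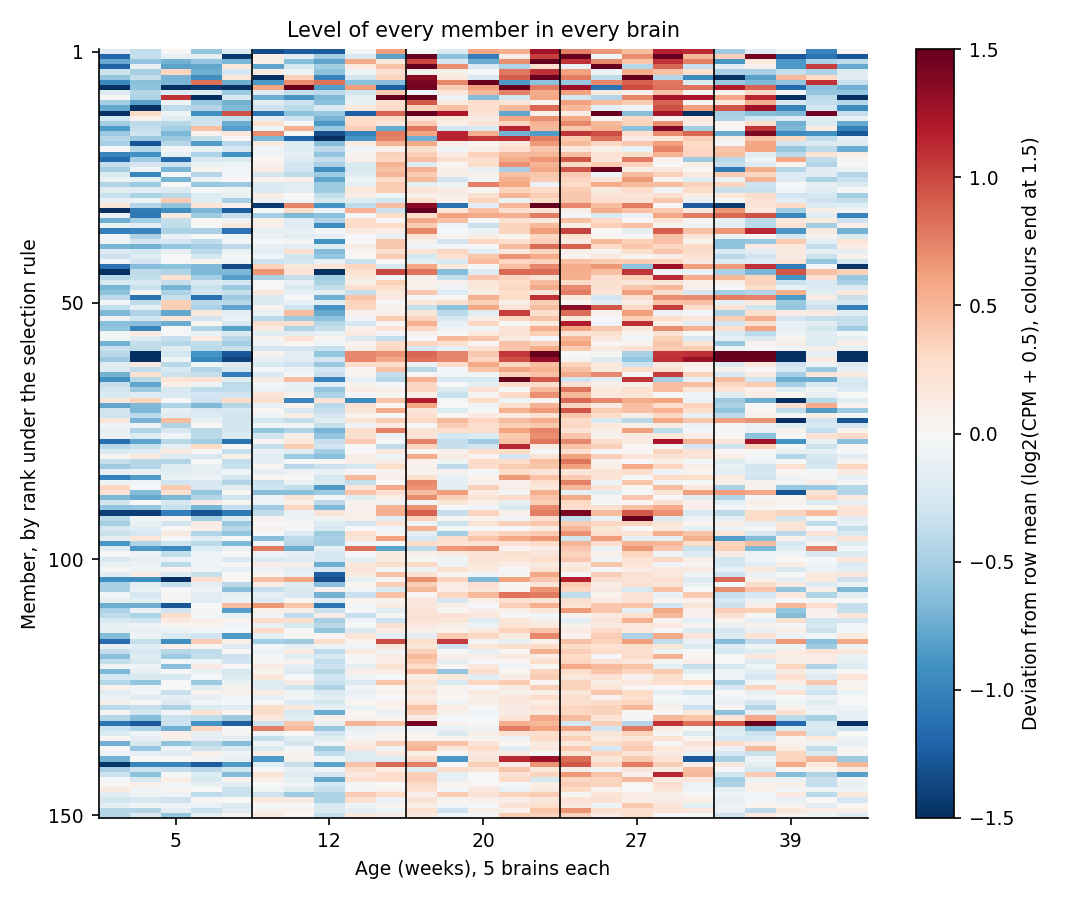
Level of each of the 150 members (rows, by rank) in each of the 25 brains (columns, 5 per age, in the order of the replicates), as the deviation of log2(CPM + 0.5) from the contig's mean, with red above and blue below it. The columns of 20 and 27 weeks are redder, as the choice of the members requires, while single brains of 12 and 39 weeks are as red as these in several rows and no member separates all 10 mid-life brains from the other 15.

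The highest margin belonged to Nofu_gene_3_0006199, with the zebrafish identifier ENSDARG00000061021, a contig of low level. Its values were 4.34, 3.76, 5.06, 3.13 and 4.24 CPM at 5 weeks and 1.67, 1.81, 1.78, 4.83 and 7.92 CPM at 12 weeks. At 20 weeks it had 4.89, 4.22, 7.81, 7.52 and 12.8 CPM and at 27 weeks 8.74, 8.11, 7.11, 11.7 and 11.4 CPM, and at 39 weeks 3.28, 4.39, 4.88, 2.26 and 5.13 CPM. The 5 brains of 27 weeks lay above all brains of 5 and 39 weeks, while 1 brain of 12 weeks, with 7.92 CPM, fell among them.

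The member ranked 2, Nofu_gene_3_0008562 (ENSDARG00000014947), had 5.87, 10.9, 12.7, 12.6 and 4.81 CPM at 5 weeks and 15.1, 12.3, 9.56, 11.8 and 7.77 CPM at 12 weeks. It had 55.2, 8.94, 6.55, 14.9 and 29.2 CPM at 20 weeks, 64.9, 13.2, 22.9, 55.4 and 19.8 CPM at 27 weeks and 18.2, 38.6, 5.53, 6.24 and 5.42 CPM at 39 weeks. Its mean at 27 weeks, 35.2 ± 23.3 CPM (SD, n = 5), was raised by the brains of 64.9 and 55.4 CPM, and 2 brains of 20 weeks were below the highest brain of 5 weeks.

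The member ranked 3 was steady at 5 weeks, with 13.5, 15.3, 14.0, 15.4 and 14.3 CPM, and had 24.7, 14.7, 13.2, 34.7 and 26.0 CPM at 12 weeks. It had 46.9, 19.4, 13.7, 38.0 and 69.7 CPM at 20 weeks, 49.7, 38.6, 31.0, 49.7 and 39.4 CPM at 27 weeks and 12.5, 25.9, 12.6, 16.7 and 17.7 CPM at 39 weeks. All brains of 27 weeks exceeded those of 5 and 39 weeks, and the lowest brain of 20 weeks lay within the range of 5 weeks.

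Single brains stood far above the others of their age in several high ranks. The member ranked 4 reached 47.3 CPM in replicate 1 of 20 weeks, where the other 4 brains had 6.30 to 14.7 CPM. The member ranked 6 reached 86.1 CPM in replicate 5 of 20 weeks, where the others had 6.43 to 20.2 CPM, and its mean of 27.2 ± 33.4 CPM at that age stood beside 10.3 ± 8.03 CPM at 27 weeks (SD, n = 5). In both members 27 weeks, not 20 weeks, was the lower of the mid-life means and so set the margin. At 27 weeks rank 4 had 8.18, 32.7, 6.51, 16.7 and 6.87 CPM, so that 1 high brain also raised this mean. Rank 6 had 13.4, 5.72, 23.0, 5.54 and 3.66 CPM at 27 weeks. Rank 4 stayed in the list in 25 and rank 6 in 24 of the 25 runs that left out 1 library. In these runs, with the rule applied again to the remaining libraries, between 107 and 143 of the 150 members stayed, the fewest without replicate 2 of 20 weeks. In all 25 runs 37 members stayed, 14 of them among the 20 highest ranks. Without the 6 libraries marked w0w1, 71 members stayed, and with medians in place of means 73.

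The member ranked 7 stood at 2 separate levels. It had 11.6, 14.8, 14.2, 41.3 and 13.7 CPM at 5 weeks, 12.6, 38.0, 41.1, 14.8 and 14.7 CPM at 12 weeks and 62.8, 38.3, 69.6, 12.5 and 14.9 CPM at 20 weeks. At 27 weeks it had 15.4, 38.4, 43.0, 40.4 and 20.0 CPM and at 39 weeks 15.4, 14.4, 15.1, 49.3 and 18.1 CPM. No brain lay between 20.0 and 38.0 CPM. The upper level was found at every age, in 1 brain of 5 weeks, 2 of 12 weeks, 3 of 20 weeks, 3 of 27 weeks and 1 of 39 weeks, so that its ages differ in the number of brains at the upper level and both levels occur in young and in old fish. With the other members it varied inversely within ages (Pearson's r = -0.37 over 25 brains), one of 6 members with a negative r. A gap of more than 0.5 on the log2 scale with at least 5 brains on each side was present in 5 members (3.33%) and in 1.45% of the 11541 contigs.

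The members were of lower level than the contigs they were chosen from. Per length, the median of their mean levels was 10.4 RPKM (reads per kilobase of contig, scaled to library size) with quartiles of 4.34 and 28.4, against 15.6 RPKM with quartiles of 6.41 and 39.7 for all 11541. Contig length, recovered from the ratio of CPM to RPKM, had a median of 2471 bases in members and 2375 bases in all. A best bidirectional match to zebrafish was recorded for 114 members (76.0%), against 82.1% of all. The SD between brains of 1 age had a median of 0.28 on the log2 scale in members, against 0.18 in all, so that the members were more variable between fish of the same age. Rows of low level and high variability reach an extreme margin more easily, and the part of this in the choice was not tested.

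Ages on the same side of the rule were compared with edgeR's quasi-likelihood test over 16484 contigs, with Benjamini-Hochberg adjusted p-values and calls at an adjusted p under 0.05. The rule is not neutral here either. A contig that was high at any 1 of 5, 12 and 39 weeks needed a still higher level at 20 and 27 weeks to be chosen, which favours small differences between the 3 flanking ages and between the 2 mid-life ages. All 150 members passed the filter on low counts. The shares of all contigs called are over these 16484, not over the 11541 from which the members were drawn.

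From 5 to 12 weeks the members that were called moved in 1 direction. At 12 weeks 24 members (16.0%) were higher than at 5 weeks, against 10.8% of all contigs, and 0 members were lower, against 13.0%. At an unadjusted p under 0.05, 45 members were higher and 0 lower, beside 6017 of all 16484 contigs in both directions together. DESeq2 called 28 members higher and 0 lower. Over all contigs DESeq2 called 1977 higher and 2280 lower. The median difference was 0.23 on the log2 scale in members and 0.01 in all contigs. A fitted difference above 0 was found in 133 members and one below 0 in 17. A contig that falls after 5 weeks must climb back above its level at 5 weeks to be a member, so that part of this direction lies in the rule. The count was 16 without replicate 1 of 5 weeks, replicate 2 of 5 weeks or replicate 4 of 12 weeks, and 35 without replicate 3 of 12 weeks, a brain with low members.

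At 39 weeks 32 members (21.3%) were higher than at 5 weeks, against 18.2% of all contigs, and 0 were lower, against 18.7%. At an unadjusted p under 0.05, 43 members were higher at 39 weeks and 1 lower, beside 7517 of all 16484 contigs in both directions together. DESeq2 called 35 members higher and 1 lower. Over all contigs DESeq2 called 3039 higher and 3236 lower. The median difference was 0.23 in members and 0.01 in all. The same 20 members were called in both comparisons with 5 weeks and 36 in at least 1. Both comparisons share the brains of 5 weeks, which favours such an overlap in any contigs. The matching counts over all contigs are not given here, so that the overlap is a description only. The count at 39 against 5 weeks fell to 20 without replicate 2 of 39 weeks and to 18 without the 6 libraries marked w0w1.

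Of the flanking ages, 5 weeks was the lowest in 102 members (68.0%), 39 weeks in 30 and 12 weeks in 18. Over all 11541 contigs these shares were more even, and 5 weeks was the lowest of the 3 in 32.9%. The highest flanking age was 12 weeks in 68 members, 39 weeks in 61 and 5 weeks in 21. These counts use the same age means that chose the members and are a description only.

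The difference of largest size from 5 weeks belonged to the member ranked 8, Nofu_gene_3_0003897 (ENSDARG00000089858). It had 6.33, 12.1, 2.04, 6.53 and 1.44 CPM at 12 weeks, against 0.604, 2.48, 0.739, 1.18 and 0.857 CPM at 5 weeks, a log2 difference of 2.31 (standard error 0.61, edgeR adjusted p = 0.0083). At 39 weeks it had 9.89, 7.80, 1.52, 2.47 and 2.25 CPM, and the log2 difference from 5 weeks was 2.07 (standard error 0.61, edgeR adjusted p = 0.0104). All brains of 5 weeks were low, whereas 2 brains of 12 weeks and 3 of 39 weeks overlapped them, with 1.44 to 2.47 CPM. At 20 weeks it had 11.9, 5.36, 6.49, 12.3 and 7.32 CPM and at 27 weeks 10.5, 1.61, 8.42, 7.49 and 7.50 CPM. Without the marked libraries both calls were lost, with adjusted p-values of 0.058 (12 against 5 weeks) and 0.057 (39 against 5 weeks).

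A cleaner step was seen in Nofu_gene_3_0014042 (ENSDARG00000041623), ranked 91. At 12 weeks it had 80.6, 97.9, 120.2, 110.5 and 154 CPM, against 39.3, 39.1, 51.3, 42.2 and 50.1 CPM at 5 weeks, with no overlap, and the log2 difference was 1.39 (standard error 0.25, edgeR adjusted p = 0.00031). At 39 weeks it had 80.1, 126, 134, 147.6 and 122 CPM, 1.49 above 5 weeks on the log2 scale (standard error 0.25, edgeR adjusted p = 5.7e-05). At 20 weeks it had 197, 82.4, 133, 111 and 179 CPM and at 27 weeks 282, 146, 199, 169 and 89.9 CPM. Its values after 5 weeks overlapped between all 4 later ages, and its margin was 0.16. The member ranked 140 followed a like course, with 25.3, 22.6, 16.3, 38.8 and 52.2 CPM at 12 weeks, against 10.2, 14.4, 14.2, 11.9 and 15.7 CPM at 5 weeks, and a log2 difference of 1.27 (standard error 0.24, edgeR adjusted p = 0.00051). The calls of ranks 91 and 140 in both comparisons with 5 weeks held in each of the 30 alternatives run.

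Between 39 and 12 weeks 0 members were called in either direction, against 5.81% of all contigs higher and 6.80% lower. At an unadjusted p under 0.05, 1 member was higher and 1 lower, beside 4752 of all 16484 contigs in both directions together. DESeq2 called 0 members higher and 1 lower. Over all contigs DESeq2 called 1163 higher and 1402 lower. The middle 90% of the members lay between -0.29 and 0.30 on the log2 scale, and that of all contigs between -0.56 and 0.50. Both are flanking ages, and the rule favours small differences between them. The low number of calls and the narrower range are therefore a description and not a result about the members. The member called by DESeq2 was ranked 71 and belongs to a pair described below.

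Between 27 and 20 weeks 0 members were called by edgeR, against 0% of all contigs in each direction. At an unadjusted p under 0.05, 3 members were higher and 3 lower among 1619 contigs in all, and DESeq2 called 0 members, 8 contigs higher and 13 lower. The median difference of the members was 0.01, and 86 had the higher mean log2 level at 27 weeks and 64 at 20 weeks. The lowest adjusted p of any member was 0.40. Which of the mid-life ages is the peak could therefore not be told for any member.

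**Figure D2:**
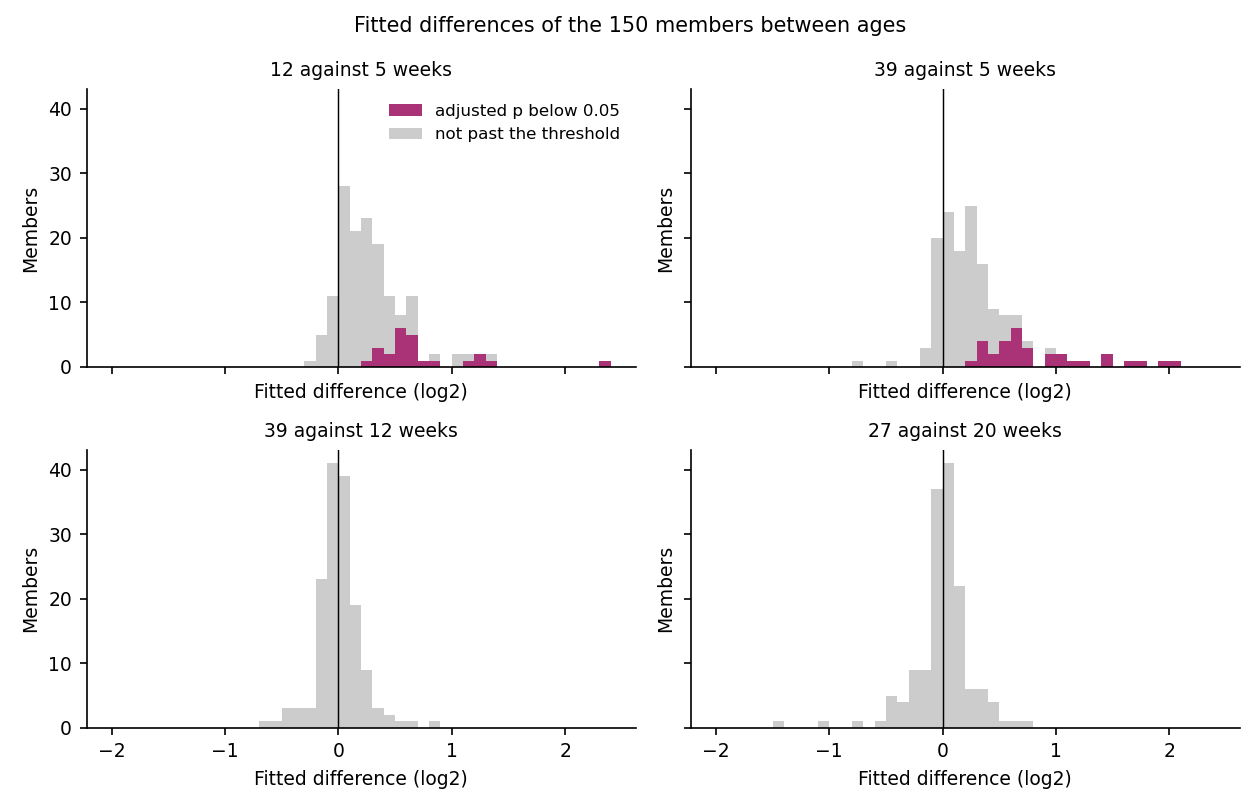
Distribution of the fitted log2 differences of the 150 members in the 4 comparisons tested (x axis, later minus earlier age, in bins of 0.1; y axis, number of members), with members at an edgeR adjusted p under 0.05 in purple. The calls, 24 at 12 against 5 weeks and 32 at 39 against 5 weeks, all lie above 0, and both comparisons with 0 calls are centred near 0.

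The mean level over the members, as the deviation of log2(CPM + 0.5) from each contig's mean, was -0.33 ± 0.07 in brains of 5 weeks and -0.09 ± 0.22 in those of 12 weeks, 0.25 ± 0.16 and 0.27 ± 0.11 in those of 20 and 27 weeks, and -0.11 ± 0.14 in those of 39 weeks (SD, 5 brains per age). These means follow from the choice of the members. The rule did not rank brains within an age, but a brain far from the others moves the mean of its age. The order of the brains within an age is therefore not independent of the choice either. At 12 weeks, replicate 3 was at -0.43 and replicate 5 at 0.16. Replicate 3 had the lowest total (15690560) and the fewest contigs detected (17393) of all libraries and replicate 5 the highest total (26378519) and the most detected (17695), and the part of depth in this spread was not tested. At 39 weeks the deepest libraries, replicates 4 and 5, were at -0.13 and -0.23, and the highest brain was replicate 2 at 0.11 with 16158791 counts. The lowest brain of 12 weeks and the highest of 20 and of 39 weeks were libraries marked w0w1. The other marked libraries were neither the highest nor the lowest of their age. These were replicate 4 of 5 weeks (-0.26), replicate 2 of 12 weeks (-0.10) and replicate 4 of 27 weeks (0.34).

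**Figure D3:**
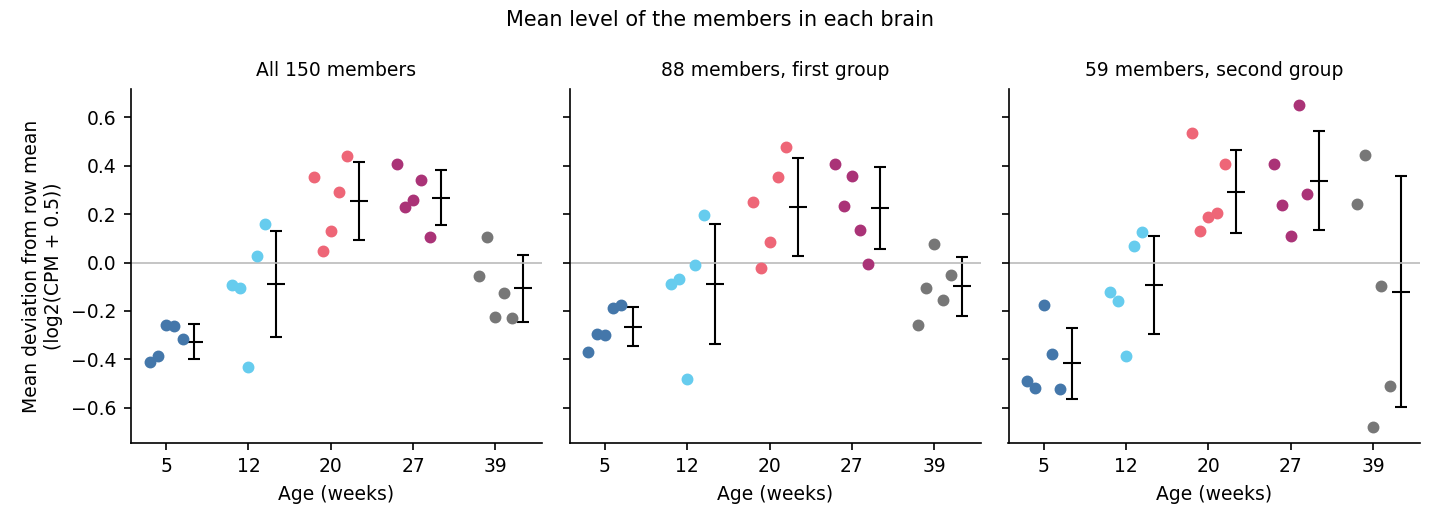
Mean deviation from the contig mean (y axis, log2(CPM + 0.5)) in each brain by age (x axis, weeks), for all 150 members, for the group of 88 and for the group of 59 that varied together within ages, with 1 point per brain and a bar for the mean ± SD of 5 brains. In the group of 59 the 5 brains of 39 weeks spread from -0.68 to 0.44, wider than at any other age.

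Within ages the members varied together from brain to brain. The mean Pearson's r between pairs of members, over the deviations of the 25 brains from their age means, was 0.188, and that between pairs of all 11541 contigs was 0.009. Contigs that vary together also have age means that move together, so that choosing on age means favours such contigs, and this value is not independent of the rule. It was 0.183 in the brains of 20 and 27 weeks alone and 0.184 in those of 5, 12 and 39 weeks alone. It fell to 0.128 without replicate 3 of 12 weeks and to 0.110 without the 6 marked libraries.

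Average-linkage clustering of these deviations, run after the values were seen, gave a group of 88 and a group of 59 members, with 3 members in neither. The mean r was 0.322 within the 88, 0.353 within the 59 and 0.058 between them. By mean level the groups were close at 39 weeks (-0.10 ± 0.12 in the 88 and -0.12 ± 0.48 in the 59, SD over 5 brains), and they differed in which old brains were high. At 39 weeks the 88 averaged -0.26, -0.11, 0.07, -0.15 and -0.05 in replicates 1 to 5, and the 59 averaged 0.24, 0.44, -0.68, -0.10 and -0.51. In 2 old brains the second group was thus as high as in mid-life, and in 2 others it was at or below the level of most brains of 5 weeks. Replicates 1 and 2 lay above the other 3 old brains in 40 of the 59 members and in 4 of the 88. The same split was present in 29.3% of all members and in 19.2% of the 11541 contigs, so that it was not particular to the members. The groups were formed from these same deviations. The counts in the 59 and the 88 therefore describe how they were made and do not test a difference between them. The second group held 13 of the 20 highest ranks and the first group 7. At 39 against 5 weeks 19 of the 59 and 12 of the 88 were called higher, against 18.2% of all contigs. The brains of 39 weeks also went into forming the groups, and a difference between the groups in these calls was not tested.

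The widest spread in old brains was that of a pair of contigs in the second group, ranked 60 and 61. The member ranked 61 had 266, 77.6, 372, 196 and 149.8 CPM at 5 weeks, 349.9, 341, 318, 639.7 and 581 CPM at 12 weeks and 682, 645, 484, 760.4 and 970.1 CPM at 20 weeks. At 27 weeks it had 401, 339, 259, 839 and 950.0 CPM, and at 39 weeks 1498, 1774, 26.5, 426 and 125 CPM. At 39 weeks the highest brain exceeded the lowest 66.9-fold, and the 2 highest and the lowest of all 25 brains were of this age. By arithmetic mean it was highest at 39 weeks, with 708 ± 178 CPM at 20 weeks, 558 ± 314 CPM at 27 weeks and 769.8 ± 810.2 CPM at 39 weeks (SD, n = 5), and it is a member because the rule averages logarithms. It was the only member whose arithmetic mean was highest outside 20 and 27 weeks. In 147 members the arithmetic means at 20 and at 27 weeks both exceeded those of every other age. Ranks 60 and 132 also had a higher arithmetic mean at 39 than at 27 weeks, at 545 against 425 CPM and 5.95 against 5.80 CPM. Per length rank 61 was the member of highest level, with a mean of 386 RPKM.

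The member ranked 60 had 1064, 1276, 23.3, 276 and 84.0 CPM at 39 weeks, against 229, 60.4, 253, 163 and 126 CPM at 5 weeks. Within ages the pair varied together with r = 0.994 over 25 brains, the highest of any pair of members. Both were called higher at 39 than at 5 weeks, with log2 differences of 1.76 for rank 60 (standard error 0.65, edgeR adjusted p = 0.037) and 1.90 for rank 61 (standard error 0.67, edgeR adjusted p = 0.028), although 2 old brains of each were below the median of 5 weeks. These calls were lost in 8 of the alternatives for rank 60, with adjusted p-values of 0.050 to 0.249, and in 6 for rank 61, with 0.055 to 0.214. Both were lost without replicates 2, 4 or 5 of 5 weeks, without replicates 1 or 2 of 39 weeks and without the marked libraries, and the call of rank 60 also without replicate 1 of 5 weeks and with the mark as a factor. Members ranked 12, 33 and 73 joined the pair with r above 0.9. An r above 0.8 with rank 61 was found in 10 other members and in 0.815% of all contigs.

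Among contigs with a symbol, ATMIN, a cofactor of the DNA damage kinase ATM and a transcription factor, followed rank 61 most closely within ages (r = 0.914 over 25 brains). At 39 weeks ATMIN had 102, 108, 52.5, 84.9 and 68.4 CPM, in the order of replicates 1 to 5. ABCC5, an exporter of organic anions and cyclic nucleotides, had 61.3, 45.9, 6.07, 13.1 and 8.46 CPM in the same brains (r = 0.832). ADD3B, an adducin of the membrane skeleton, ran the other way, with 146, 121, 285, 202 and 228 CPM (r = -0.821). These contigs were picked from the highest and lowest r with rank 61, whose spread was widest at 39 weeks. Their course in the old brains therefore follows from the choice, and all values share their libraries.

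The member whose brains followed the rest of the members most closely within ages was ranked 15 (r = 0.842 with the mean of the other members over 25 brains). It had 71.4, 77.6, 76.8, 83.2 and 60.8 CPM at 5 weeks, 121, 104, 56.2, 126 and 115 CPM at 12 weeks and 134, 108, 117, 130.2 and 147.7 CPM at 20 weeks. At 27 weeks it had 169.5, 144, 129, 165 and 112 CPM and at 39 weeks 106, 123, 61.7, 88.2 and 60.7 CPM. The lowest brain at 12 weeks was again replicate 3. All brains of 20 and 27 weeks lay above those of 5 weeks, and they overlapped those of 12 and 39 weeks. Its log2 difference between 12 and 5 weeks was 0.53 (standard error 0.19, edgeR adjusted p = 0.045), a call lost in 13 alternatives, with adjusted p-values of 0.050 to 0.105. Among these were the removal of any 1 brain of 5 weeks, of any brain of 12 weeks but replicate 3, and of replicate 4 of 20 weeks, 2 of 27 weeks or 4 of 39 weeks, and the mark as a factor. A different contig, with the symbol C1ORF183, carries the same zebrafish identifier as this member and had a margin of -0.07.

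Zebrafish identifiers tied some members together. The members ranked 71 and 142 carry the same one, so that they may be pieces or copies of 1 gene whose reads the counting could have split. They also have neighbouring identifier numbers, which alone do not show this. The next number was also a member for 5 members, and only this pair shares a zebrafish identifier. The member ranked 71 had 51.3, 38.7, 57.3, 51.8 and 52.7 CPM at 5 weeks, 63.6, 52.99, 48.9, 70.9 and 92.0 CPM at 12 weeks and 70.7, 53.7, 61.6, 90.2 and 96.9 CPM at 20 weeks. At 27 weeks it had 120.0, 81.1, 84.7, 89.6 and 75.2 CPM and at 39 weeks 41.3, 63.7, 47.5, 34.1 and 42.2 CPM. At 27 weeks every brain was above every brain of 5 and 39 weeks. The log2 difference between 39 and 12 weeks was -0.52 (standard error 0.19, edgeR adjusted p = 0.067), and DESeq2 and 3 other alternatives called it, with adjusted p-values of 0.031 to 0.040. The member ranked 142 had 80.9, 69.2, 53.4, 113 and 71.9 CPM at 27 weeks and 41.4, 66.8, 32.5, 37.3 and 28.9 CPM at 39 weeks, and both varied together within ages with r = 0.617 over 25 brains.

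In all, 43 members share their zebrafish identifier with at least 1 contig outside the list. Of the 58 such contigs, 32 had a mean of at least 5 CPM. Their median margin was -0.10, against -0.20 for all 11541 contigs, and 6 of the 32 (18.8%) had a margin above 0, against 8.68%. The 11541 include the members and the 32 leave them out, so that these values are not a like comparison. The largest of the 32 margins was 0.088. A contig of this level with an identifier number above 2400 would have been a member had it passed the limit. That the 32 margins stayed below the limit was therefore largely fixed by the rule. A contig of lower level, BX927253 with a mean of 2.95 CPM, carries the identifier of the member ranked 44 and had a margin of 0.136.

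**Figure D4:**
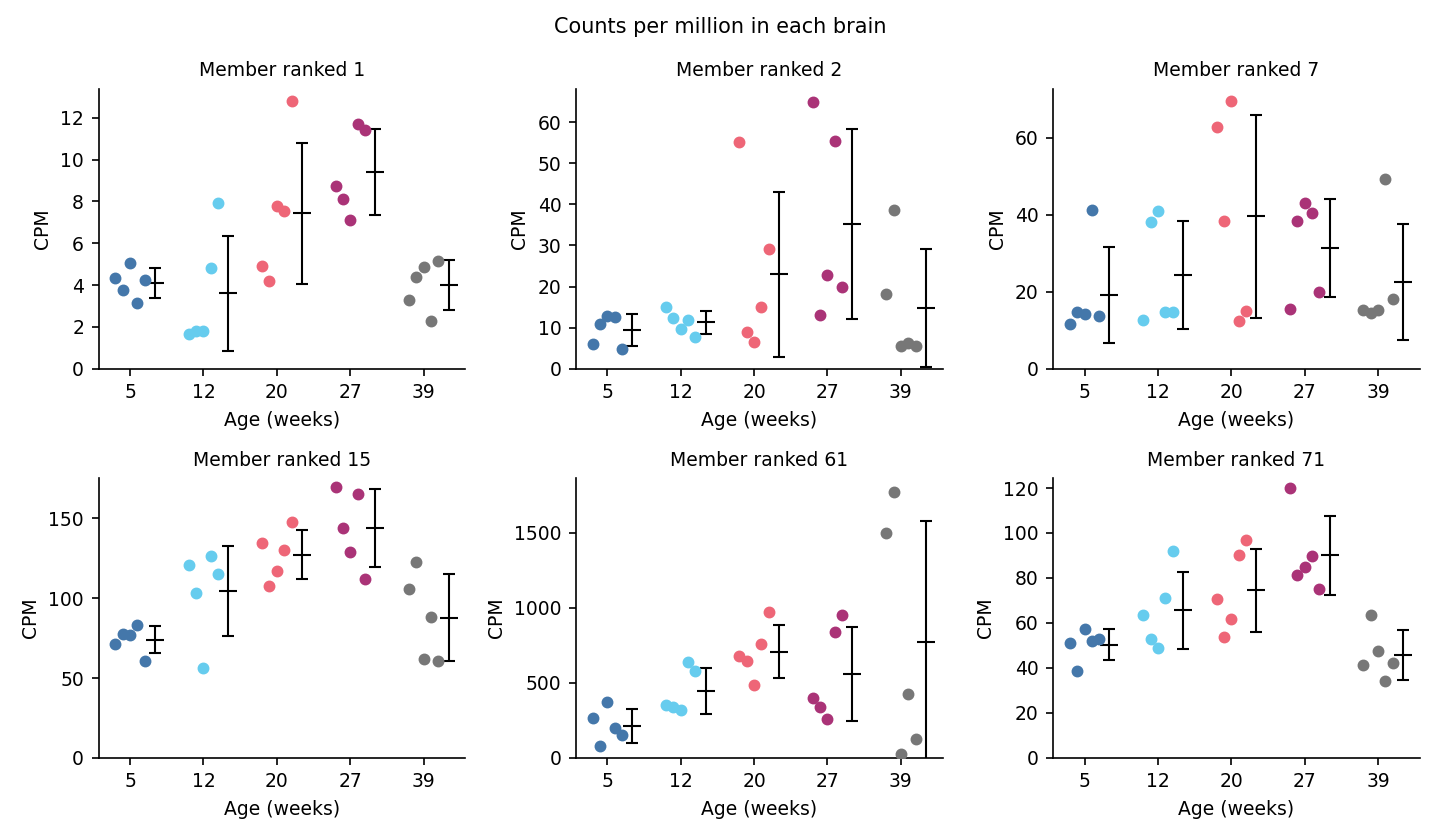
CPM (y axes, each from 0) of the members ranked 1, 2, 7, 15, 61 and 71 in each brain by age (x axes, weeks), with 1 point per brain and a bar for the mean ± SD of 5 brains, cut at 0 where it would go below. Rank 7 stands at 2 levels with no brain between 20.0 and 38.0 CPM, and rank 61 spreads 66.9-fold among the brains of 39 weeks.

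Contigs with symbols were not candidates, since the rule takes identifier numbers above 2400 only, but 23 of 1477 with a mean of at least 5 CPM (1.56%) reached the margin of the last member, against 1.30% of the candidates. The genes below were picked from the 23 for their known functions, and the highest margin, 0.53, belonged to BM1_11465, which is not described. The lists of clock, stress, growth arrest and hypoxia genes held other symbols. Of these, BHLHE41, ARNTL1A, ARNTL2, ANGPTL4, BBC3, BAG3, ASNS and BNIP3 were not among the 23. ASNS was highest at 5 weeks, with 28.2 to 34.8 CPM, against 11.9 to 24.8 CPM at the later ages. ARRDC3, an alpha-arrestin that directs membrane proteins to degradation, had 78.5, 98.0, 84.9, 121 and 114 CPM at 5 weeks and 183, 129, 105, 267 and 298 CPM at 12 weeks. It had 334, 126, 85.3, 244 and 507 CPM at 20 weeks, 389.7, 342, 232, 205 and 153.1 CPM at 27 weeks and 86.4, 198, 179.9, 102 and 176 CPM at 39 weeks. The range at 20 weeks took in those of 12 and 39 weeks. Its deviations within ages followed the mean of the members with r = 0.681 over 25 brains.

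BHLHE40, a transcriptional repressor of the circadian clock, averaged 181, 309.9, 375, 400.05 and 323 CPM in the order of the 5 ages, with a margin of 0.19. ATF3, a transcription factor induced by stress, averaged 3.76, 4.81, 7.52, 9.72 and 6.37 CPM in the same order. BAIAP2, a scaffold of actin and the synapse with 2 contigs, averaged 42.1, 59.96, 87.3, 78.1 and 52.3 CPM in the second of them. Single brains overlapped between ages. BHLHE40 had 255 to 617 CPM at 20 weeks and 213 to 423 CPM at 39 weeks. ATF3 had 4.22 to 12.8 CPM at 20 weeks and 3.96 to 9.08 CPM at 39 weeks. The second contig of BAIAP2 had 47.5 to 123 CPM at 20 weeks and 42.4 to 102 CPM at 12 weeks. BCL2, which holds back apoptosis, and the receptor kinase AXL also have 2 contigs each. The first of BCL2 and the second of AXL were near the limit, with margins of 0.13 and 0.12. The other contigs of BAIAP2, BCL2 and AXL were not among the 23.

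Within ages, the symbols most aligned with the mean of the members included ASAH1, the acid ceramidase of lysosomes (r = 0.760), ABCA1A, a cholesterol exporter (r = 0.754), and ATG9A, a membrane protein of autophagy (r = 0.734). Neither ASAH1 nor ABCA1A had a margin above 0.03. Their families did not share this direction. Of 14 contigs named for autophagy genes (ATG) 7 had a negative r, with a median of 0.02, and of 33 named for ABC transporters 16, with a median of 0.01. The most inverse was BCKDHA, a subunit of the mitochondrial enzyme that breaks down branched-chain amino acids (r = -0.802). The ATG, ABC, ATP5 and ATP6 names were chosen for a count after values were seen. Of 15 contigs named ATP5, most of which encode subunits of the mitochondrial ATP synthase, 14 had a negative r, with a median of -0.586, and among all 1477 contigs with a symbol 48.3% were negative, with a median of 0.02. Of 19 named ATP6, most of which encode subunits of the vacuolar ATPase that acidifies lysosomes and vesicles, 17 were negative, with a median of -0.456, so that the direction was not limited to the mitochondrial enzyme. For ATP5, without replicate 3 of 12 weeks the count was 13 and the median -0.385, and without the marked libraries 14 and -0.435. The values share library and normalization, and CPM measures each contig as a share of the whole.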

How the data were processed

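The authors mapped 1 library of single reads per brain uniquely with Bowtie to transcript contigs and deposited whole-number counts per contig, with no normalization, and RPKM values, which the authors scaled to contig length and mappable reads. Further tools in the submitters' processing notes are featureCounts 1.4.3-p1, TopHat2 2.0.6 and CASAVA, with no role given. Later tables of other gene models share no identifier with these and were not used. The RPKM values served for levels per length and for contig length.

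Tests used edgeR 4.0.16 in R 4.3.3 (TMM factors, default filter, quasi-likelihood test, 1 model of 5 ages), with DESeq2 1.42.0 beside it, and the steps were tested on simulated data. Descriptions used Python 3.11.15, NumPy 2.4.6, SciPy 1.17.1, pandas 2.3.3 and matplotlib 3.10.9. The reads carry no molecular identifiers, so that PCR copies count more than once and depth overstates the precision. The members and the gene lists were chosen with earlier results of these data known. Identifiers were printed for the leading 2 members and the 2 largest differences called at 12 against 5 weeks, and others were named by rank. Symbols came from a supplementary table of the study, whose RPKM means were matched to the contigs. Alternatives were other size factors, no filter, DESeq2, the title mark as a factor or the 6 marked libraries left out, other pseudocounts, minimums and summaries, and each library left out. No sequences are given, since none was in the sources used here.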

Additional observations from a re-analysis of the deposited data

Results flagged for a closer look

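In 4 of 85 groups of 5 brains examined, 1 brain stood far from the other 4, and chance gives about 1 in 20. The member ranked 7 had 41.3 CPM in replicate 4 of 5 weeks, against 11.6 to 14.8 CPM in the others, and 49.3 CPM in replicate 4 of 39 weeks, against 14.4 to 18.1 CPM. The member ranked 4 had 47.3 CPM in replicate 1 of 20 weeks, against 6.30 to 14.7 CPM. The member ranked 6 had 86.1 CPM in replicate 5 of 20 weeks, against 6.43 to 20.2 CPM.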

How the results depend on the processing

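Of the 150 members, 140 stayed with TMM library sizes, 142 and 146 with pseudocounts of 2 and 0.1, 73 with medians, 71 without the marked libraries, 85 with no minimum level and 82 with a minimum of 20 CPM, the number of members above that minimum. With 1 library left out, 107 to 143 stayed. The members higher at 12 than at 5 weeks then numbered 16 to 35, and those higher at 39 than at 5 weeks 20 to 36. In the comparisons with 0 calls, leaving out a library gave 0 to 1 members higher and 0 to 1 lower at 39 against 12 weeks, 0 to 1 lower at 39 against 5 weeks, 0 lower at 12 against 5 weeks, and 0 at 27 against 20 weeks. Without the marked libraries, 18 members were higher and 1 lower at 39 against 5 weeks and 2 were lower at 39 against 12 weeks, and DESeq2 called 1 lower in each of these comparisons. The within-age correlation was 0.128 to 0.202 with 1 library left out and 0.110 without the marked libraries. The alternatives for the within-age correlation were chosen after seeing the data. No paired analysis was possible because the replicate numbers are only the order of the accessions and each brain came from another fish. The later count table could not be joined and was not run. Some of these settings also have smaller numbers of samples or contigs, and the cause of the changes was not tested.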
